A study of Mus musculus with 9 samples.

Results

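Srf, the gene of serum response factor, and 8 cytoskeleton genes that are known as its targets were followed in RNA sequencing counts of primary mouse myoblasts. The genes were Acta2, Tagln, Tagln2, Cnn1, Cnn2, Myl9, Actg2 and Flna beside Srf, chosen by symbol. Acta2, Tagln, Cnn1, Myl9 and Actg2 are contractile genes of smooth muscle, while Tagln2, Cnn2 and Flna are broadly expressed. All 9 were found among the 55536 genes of the count table, and all 9 passed the filter on low counts that left 15720 genes. In the table they are ENSMUSG00000035783 (Acta2), ENSMUSG00000032085 (Tagln), ENSMUSG00000026547 (Tagln2), ENSMUSG00000001349 (Cnn1), ENSMUSG00000004665 (Cnn2), ENSMUSG00000067818 (Myl9), ENSMUSG00000059430 (Actg2), ENSMUSG00000015605 (Srf) and ENSMUSG00000031328 (Flna). The symbols were put together with earlier fits of these libraries in view, and the rule set no threshold on a value. Their levels, fold changes and calls in all 3 comparisons are therefore a description and support nothing about the genes as a set.

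The myoblasts, dividing precursors of skeletal muscle fibres, carried floxed alleles of Uqcrfs1, which encodes the Rieske protein of mitochondrial complex III. The cells fell into 3 groups of 3 libraries each. Floxed vehicle cells (uqcrfs1 +/+) received an adenovirus for green fluorescent protein and the solvent DMSO. Knockout vehicle cells (uqcrfs1 -/-) received an adenovirus for Cre recombinase and DMSO, and knockout oxybutynin cells received the Cre virus and 7.5 µM oxybutynin, a blocker of muscarinic acetylcholine receptors. All cells were seeded 72 h after infection, and drug or DMSO was given 24 h later for 5 days. No floxed cells received oxybutynin, and genotype went together with the virus, so the parts of genotype and virus cannot be told apart. Nothing in the labels ties a replicate to a culture or animal of its own, and the errors may be technical.

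Library totals ran from 19604971 to 26226949 counts. Uqcrfs1 held 1539 to 1881 counts in floxed and 46 to 71 in knockout libraries. Of 9 myoblast markers 8 were tested, and Myod1, the myogenic determination factor, stood at 1118 ± 13.5, 1302 ± 229 and 1526 ± 113 CPM (counts per 1000000 of the TMM-scaled library total) in floxed vehicle, knockout vehicle and knockout oxybutynin. The ninth, Msc, was at or near 0. In edgeR 2 of the 8 were called higher in knockout vehicle, Pax7 (0.26 ± 0.07 on the log2 scale) and Des (0.43 ± 0.10), and 3 lower, Cdh15 (-0.88 ± 0.10), Myog (-0.55 ± 0.08) and Myf5 (-0.39 ± 0.09). With the trend of fold changes on GC content and exon length removed, 1 was higher and 4 lower. The higher gene was then Chrna1 (0.21), and the lower ones Cdh15 (-1.40), Myog (-1.06), Itga7 (-0.48) and Myod1 (-0.36). Pax7 (-0.09), Des (-0.045) and Myf5 (0.12) lost their calls in that form. Over all tested genes 29.9% were called higher and 33.4% lower, and 30% and 35% with the trend removed. Marker genes named here and below beyond the naming rule were chosen after their values were seen. Errors beside CPM are SDs, those beside log2 fold changes are standard errors (SE), and every group has n = 3. Some library measures moved with the groups, and their part in the results was not tested. The share of counts from the mitochondrial genome was 3.07 to 3.14% in floxed vehicle, 1.95 to 2.71% in knockout vehicle and 1.58 to 2.12% in knockout oxybutynin libraries. Log2 fold changes also followed base composition, with a Spearman correlation with transcript GC content of 0.542 for knockout against floxed vehicle and 0.690 for oxybutynin against vehicle, across 12976 protein-coding genes that share these libraries. The summed CPM of leukocyte markers was 5.36 to 6.22, 11.3 to 12.9 and 12.7 to 13.7 in the same order of groups, and that of endothelial markers 4.96 to 6.36, 8.54 to 9.64 and 8.94 to 11.1. Most of each rise was 1 gene, Cd68 (mean 4.74 to 10.8 CPM in knockout vehicle, log2 fold change 1.19 ± 0.13) and Vwf (mean 2.77 to 6.22 CPM, 1.16 ± 0.18), while the leukocyte marker Ptprc was under 1 CPM in every library and the endothelial marker Tie1 at 0. Knockout vehicle replicate 3 correlated better with the oxybutynin libraries (Pearson r of log2 CPM 0.9924 to 0.9930) than with its own group (0.9862 and 0.9898).

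Serum response factor binds a DNA element called the CArG box and works through partner proteins. Myocardin-related transcription factors (MRTF-A and MRTF-B) bind actin monomers and enter the nucleus when actin is built into filaments, which turns on genes of the contractile and adhesive cytoskeleton. Ternary complex factors, such as ELK1, link SRF instead to growth factor signals and to immediate early genes. The smooth muscle genes followed here are also on in myofibroblasts and, in part, in cultured skeletal myoblasts, where SRF and MRTFs are known to take part in growth and differentiation.

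The stretches before the start sites show how the genes differ in CArG boxes, which are CC, then 6 letters of A or T, then GG. Since the pattern is its own reverse complement, 1 search covers both strands. RefSeq's table for GRCm38.p6 gave a start site for 7 of the 9 genes, all but Tagln and Actg2, and the 250 bases before it were searched. The first 5 sequences below are members with a box, exact or with 1 mismatch, and the last is Actc1, the cardiac actin that was lower in knockout cells. Each runs 5′ to 3′ on the gene's strand and ends at the base before the start site, with boxes in capitals. They lie at chr17:46556163-46556282 (minus strand), chr2:156775293-156775463 (plus strand), chr10:79988480-79988599 (plus strand), chr19:34255374-34255493 (minus strand), chrX:74246535-74246654 (minus strand) and chr2:114052876-114053060 (minus strand).
Srf: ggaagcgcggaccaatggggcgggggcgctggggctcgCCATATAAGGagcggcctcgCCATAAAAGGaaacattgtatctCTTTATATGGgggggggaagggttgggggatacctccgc
Myl9: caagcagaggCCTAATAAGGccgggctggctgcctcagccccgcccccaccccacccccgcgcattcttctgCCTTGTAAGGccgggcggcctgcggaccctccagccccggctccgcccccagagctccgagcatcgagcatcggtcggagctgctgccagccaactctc
Cnn2: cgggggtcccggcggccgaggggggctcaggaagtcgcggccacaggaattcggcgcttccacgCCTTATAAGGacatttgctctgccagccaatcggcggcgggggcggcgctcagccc
Acta2: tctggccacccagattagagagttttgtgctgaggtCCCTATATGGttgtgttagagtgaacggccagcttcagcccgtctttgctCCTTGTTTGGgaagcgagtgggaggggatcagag
Flna: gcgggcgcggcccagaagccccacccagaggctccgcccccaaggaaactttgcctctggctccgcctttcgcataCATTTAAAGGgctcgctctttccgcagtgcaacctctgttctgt
Actc1: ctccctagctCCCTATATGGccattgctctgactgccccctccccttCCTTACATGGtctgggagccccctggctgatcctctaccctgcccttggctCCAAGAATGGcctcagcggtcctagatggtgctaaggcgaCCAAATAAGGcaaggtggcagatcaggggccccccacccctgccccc

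Srf held 2 exact boxes, starting 82 and 62 bases before its start site, and 1 with a mismatch at 39. Myl9 held 1 exact box at 161 and 1 mismatched box at 99, and Cnn2 1 exact box at 56. Acta2 held no exact box but a pair with 1 mismatch, at 84 and 34, and Flna 1 with a mismatch at 44. Cnn1 and Tagln2 had no match in this window. Actc1 held 1 exact box at 47 and 3 mismatched ones at 175, 138 and 87. So 3 of 7 members held an exact box and 5 of 7 an exact or mismatched one. Of the 32851 promoters listed by RefSeq, 1.47% held an exact box and 18.6% an exact or mismatched one. A match is a run of letters, not a shown binding site. Among the family relatives 4 of 9 genes with a promoter in the table held an exact box, among other known MRTF-SRF targets 6 of 22, among SRF cofactors and actin regulators 0 of 20, and among immediate early genes 1 of 7.

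**Figure D1:**
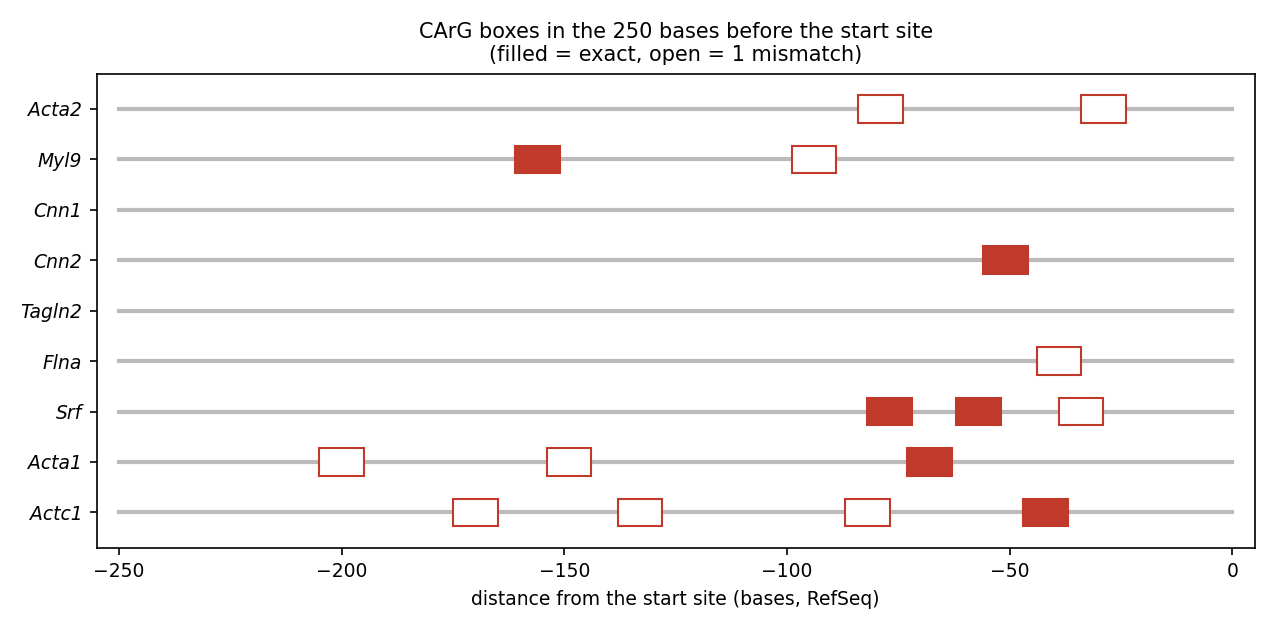
Positions of CArG boxes (filled, exact; open, 1 mismatch) along the 250 bases before the RefSeq start site, in bases, for the 7 members with a promoter in the table and for the muscle actins Acta1 and Actc1. Srf, Myl9 and Cnn2 carry exact boxes, Acta2 and Flna only mismatched ones, and Cnn1 and Tagln2 none.

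The first comparison set knockout against floxed cells, both in vehicle, and asks how the genes stood without the complex III subunit. The smooth muscle contractile genes Acta2, Tagln, Myl9, Cnn1 and Actg2 had fitted folds from 2.02 (Myl9) to 11.7 (Cnn1) in knockout over floxed cells, and the broadly expressed relative Cnn2 was 1.31-fold higher. Tagln2, Flna and Srf itself lay within the spread of the libraries. In edgeR's quasi-likelihood test 6 of the 9 genes were higher at an adjusted p under 0.05 and 0 lower, beside 29.9% of all tested genes called higher and 33.4% called lower (63.3% in either direction). The same 6 had no overlap between the groups, beside 31.2% of all genes separate with knockout higher and 35.5% separate with knockout lower. Of these 6, Cnn1 and Actg2 passed the filter on low counts only through the knockout groups. The median log2 fold change of the 9 was 1.01, beside -0.01 for all tested genes. In bulk samples fewer cells of a type and less RNA per cell cannot be told apart.

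Acta2, smooth muscle α-actin, is encoded on chromosome 19 (minus strand, 34241090 to 34255590, GRCm38) in 10 merged exons. Its level was 479, 453 and 499 CPM in the floxed vehicle, 1002, 816 and 1098 in the knockout vehicle and 1156, 1046 and 1019 in the knockout oxybutynin libraries. All 6 knockout libraries stood above all 3 floxed ones. The knockout vehicle difference was 2.04-fold (log2 fold change 1.03 ± 0.10).

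Tagln encodes transgelin (SM22), an actin-binding protein of smooth muscle, at 45929619 to 45936058 of chromosome 9 (minus strand). It rose from 11.1, 10.3 and 10.3 CPM with the GFP virus to 45.7, 32.4 and 45.5 in knockout vehicle, and stood at 56.4, 45.7 and 43.0 with oxybutynin. No knockout library came near the floxed ones, and the log2 fold change was 1.96 ± 0.14. The antisense gene Gm48529 covers 62.4% of the exonic bases of Tagln, and whether reads were counted by strand is not stated, so the counts of Tagln are uncertain. Gm48529 itself held 24 to 50 counts per library, fewer in each knockout vehicle library than in any floxed one, against 218 to 1381 for Tagln.

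Myl9, the regulatory light chain of smooth muscle and non-muscle myosin, lies on the plus strand of chromosome 2 from 156775420 to 156781658. Floxed vehicle libraries gave 64.7, 65.5 and 68.2 CPM, knockout vehicle libraries 124, 134 and 142, and those with oxybutynin 134, 127 and 143. The groups did not overlap and the spread within each was small, at a log2 fold change of 1.01 ± 0.08.

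Cnn1 and Actg2, the strictest smooth muscle genes of the set, were close to silent. Cnn1, calponin 1, which binds actin and restrains myosin (chromosome 9, plus strand, 22099216 to 22109630), had only 1, 1 and 5 counts in the floxed libraries, against 29, 27 and 36 with knockout and vehicle and 27, 42 and 31 with knockout and oxybutynin. Summed over libraries, knockout vehicle had 12.3 times the floxed rate, with an exact 95% interval of 5.72 to 31.3 that covers counting error only. Actg2, the γ-actin of visceral smooth muscle (chromosome 6, minus strand, 83512905 to 83536265), had 10 counts in each floxed library, 28, 42 and 47 in knockout vehicle and 43, 44 and 16 with oxybutynin. Its summed ratio for knockout vehicle was 3.64 (interval 2.42 to 5.63). The fitted log2 fold change of Cnn1 was 3.55 ± 0.46, and 4.66 without floxed vehicle replicate 3, which held 5 of its 7 floxed counts. Both genes passed the filter, about 0.44 CPM in 3 libraries, only through the knockout groups, so a difference was built into their being tested. Their mean levels of 1.31 ± 0.167 and 1.66 ± 0.312 CPM in knockout vehicle remained far under that of Acta2.

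The broadly expressed members moved little. Cnn2, calponin 2 of many cell types (chromosome 10, plus strand, 79988584 to 79996062), gave 258, 273 and 274 CPM in the floxed libraries and 372, 305 and 375 in the knockout vehicle ones, with a log2 fold change of 0.38 ± 0.09. Tagln2, the transgelin of non-muscle cells (chromosome 1, plus strand, 172500047 to 172507380), was at 88.2, 80.4 and 84.6 CPM and then 104, 69.4 and 107. Knockout vehicle replicate 2 lay below every floxed library and the other 2 above, so the groups overlapped (0.14 ± 0.13). Flna encodes filamin A, the crosslinker of cortical actin (X chromosome, minus strand, 74223461 to 74249820). It was at 2598, 2647 and 2687 CPM in floxed and 2696, 2533 and 2952 in knockout vehicle, a log2 fold change of 0.04 ± 0.08 with an interval from -0.13 to 0.21. Srf (chromosome 17, minus strand, 46548329 to 46556175) gave 119, 115 and 116 CPM in the floxed libraries and 124, 116 and 142 in the knockout vehicle ones. The change of the factor's own transcript was 0.12 ± 0.08, with an interval from -0.05 to 0.30. Without knockout vehicle replicate 2, Tagln2 (0.32) and Srf (0.20) were called higher.

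**Figure D2:**
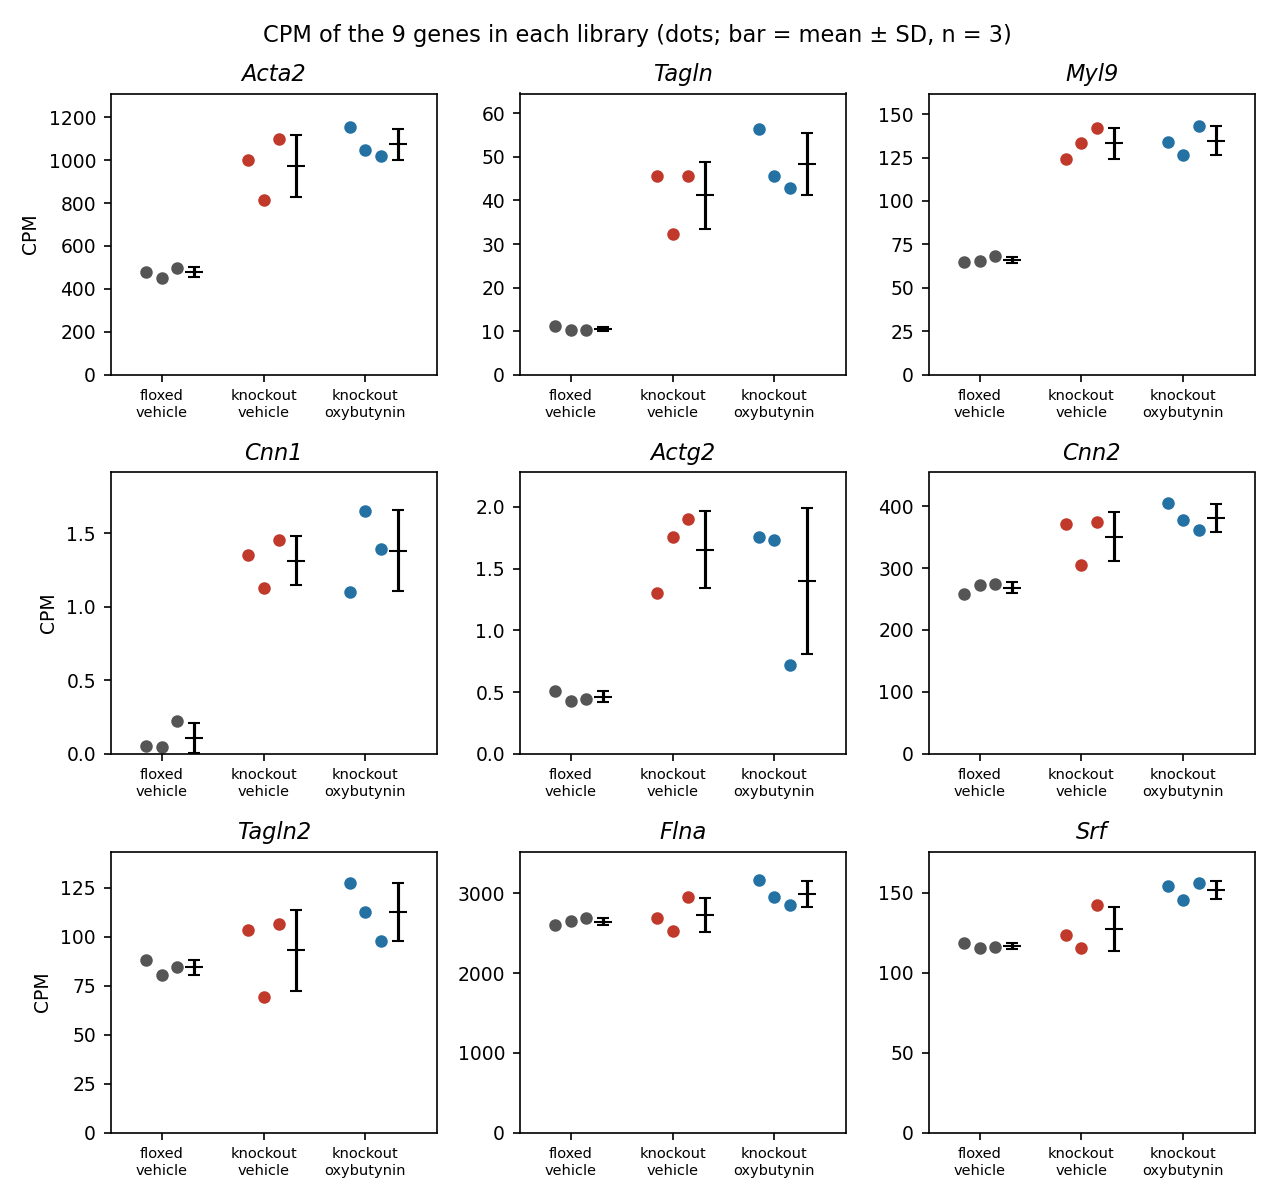
CPM of each of the 9 genes (linear axes from 0) in the 9 libraries; dots are libraries in replicate order, and bars are the mean ± SD of a group (n = 3). Acta2, Tagln, Myl9, Cnn1, Actg2 and the broadly expressed Cnn2 have every knockout library above every floxed one, while Tagln2, Flna and Srf overlap between floxed and knockout vehicle.

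Levels can be set side by side only per length, here as CPM per kilobase (kb) of exon. In floxed vehicle Flna led with 276 to 286, followed by Acta2 with 206 to 227 and Cnn2 with 105 to 111. Myl9 followed with 55.7 to 58.7, then Tagln2 (38.6 to 42.4) and Srf (39.8 to 41.0), which did not differ beyond their spread. Tagln at 5.16 to 5.60, Actg2 at 0.276 to 0.328 and Cnn1 at 0.0157 to 0.0813 closed the order. In knockout vehicle Acta2 stood first, at 372 to 500, above Flna at 270 to 314. The order of the other 7 means was as in floxed cells in both knockout groups, with Tagln2 and Srf again overlapping.

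Among the 4 muscle actins, Acta2 and Actc1 exchanged ranks and Acta1 stayed first. Acta1 is skeletal and Actc1 cardiac α-actin, and both are made in skeletal myoblasts. Acta1 went from 711 ± 43.6 to 1238 ± 187 CPM (log2 fold change 0.80 ± 0.10, edgeR adjusted p = 2.07e-06). Actc1 went from 561 ± 29.7 to 192 ± 10.5 CPM (-1.54 ± 0.08, edgeR adjusted p = 5.82e-11). Per kb of exon, Acta2 made up 20.9, 21.4 and 21.2% of the 4 actins in the floxed, 31.1, 32.3 and 33.7% in the knockout vehicle and 37.5, 35.2 and 36.1% in the oxybutynin libraries. Actc1 made up 33.8 ± 0.0990%, 8.76 ± 0.830% and 8.43 ± 0.749%, while Actg2 stayed under 0.1%. The groups did not overlap for Acta2 or Actc1 between floxed and knockout. Actins are nearly identical in coding sequence, so the split of reads among them is uncertain.

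**Figure D3:**
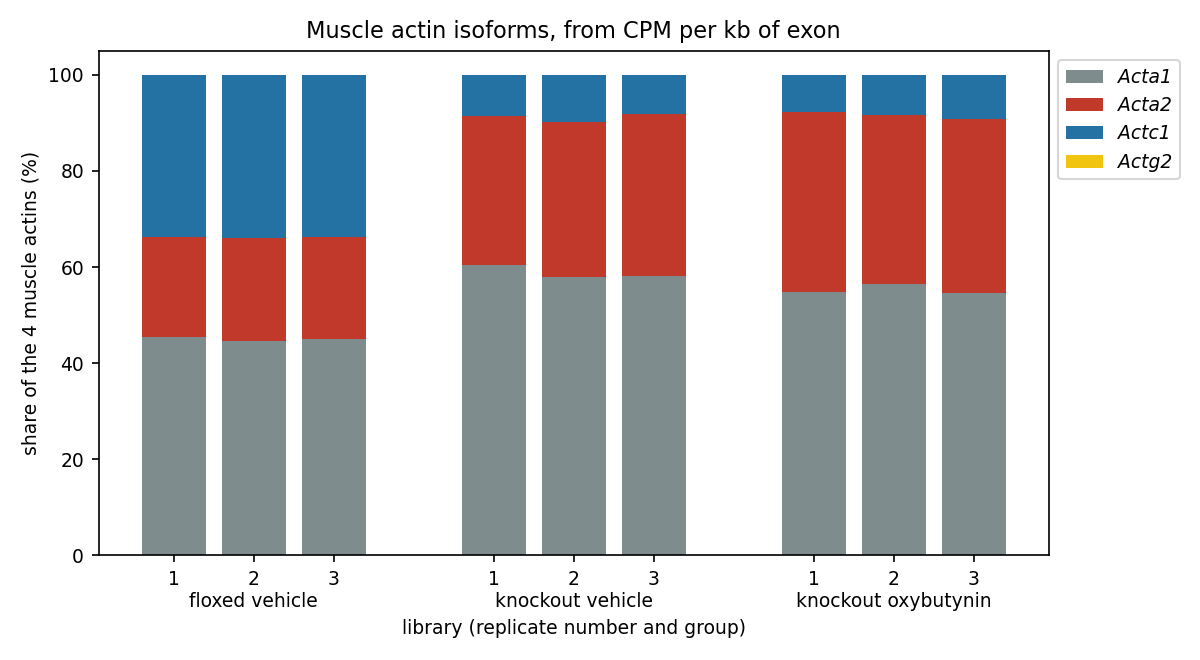
Share of each of the 4 muscle actins (percent, from CPM per kb of exon) in each library, stacked to the whole. The Acta2 share is 20.9 to 21.4% in floxed and 31.1 to 37.5% in knockout libraries, and the Actc1 share falls from 33.8% to under 10%; Actg2 is too small to see.

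Members were also set against their own relatives. Per kb, the ratio of Tagln to Tagln2 was 0.131 ± 0.00310 in the floxed, 0.466 ± 0.0209 in the knockout vehicle and 0.449 ± 0.0211 in the oxybutynin libraries. The ratio of Acta2 to Actb, the β-actin of all cells, was 0.0748 ± 0.00627, 0.129 ± 0.00182 and 0.113 ± 0.00477. Both ratios were higher in all 6 knockout libraries. Cnn3, the acidic calponin, was at 517 ± 6.48 and 658 ± 44.7 CPM (0.35 ± 0.08, edgeR adjusted p = 0.000765). Flnc, the filamin of striated muscle, was called higher with a change of this small size (0.31 ± 0.09). Cytoplasmic Actb stood at 0.24 ± 0.09 and Actg1 at 0.15 ± 0.09, the latter not called. In all, 5 of 10 tested relatives were higher and 1 lower, beside 29.9% and 33.4% of all tested genes. The median of the relatives was 0.17. Leaving out any 1 floxed library gave 3 higher. With the GC and length trend removed 2 were higher and 5 lower, beside 30% and 35% of all genes in that fit. The median of the relatives was then -0.20. Flnc then lost its call (0.04), and Actg1 was called lower (-0.28). Cnn3 overlaps a gene on the other strand over 17.7% of its exonic bases.

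Because fold changes followed GC content, the values were also taken without that trend. The members' transcripts held 49.6 to 64.4% GC against a median of 49.8% over protein-coding genes. After the trends with GC content and with exon length were removed from every library, the 5 contractile genes were still called higher in knockout vehicle. Their log2 fold changes were then 0.75 for Acta2, 1.51 for Tagln, 0.51 for Myl9, 3.19 for Cnn1 and 1.40 for Actg2. Cnn1 and Actg2 had passed the filter only through the knockout groups. Cnn2 went to -0.09 and was not called, and Tagln2 (-0.40), Srf (-0.39) and Flna (-0.15) were called lower. So 5 were higher and 3 lower, beside 30% and 35% of the 12976 genes in that fit. The trend was fitted without regard to group and so also takes away any real difference that runs with GC content or length.

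**Figure D4:**
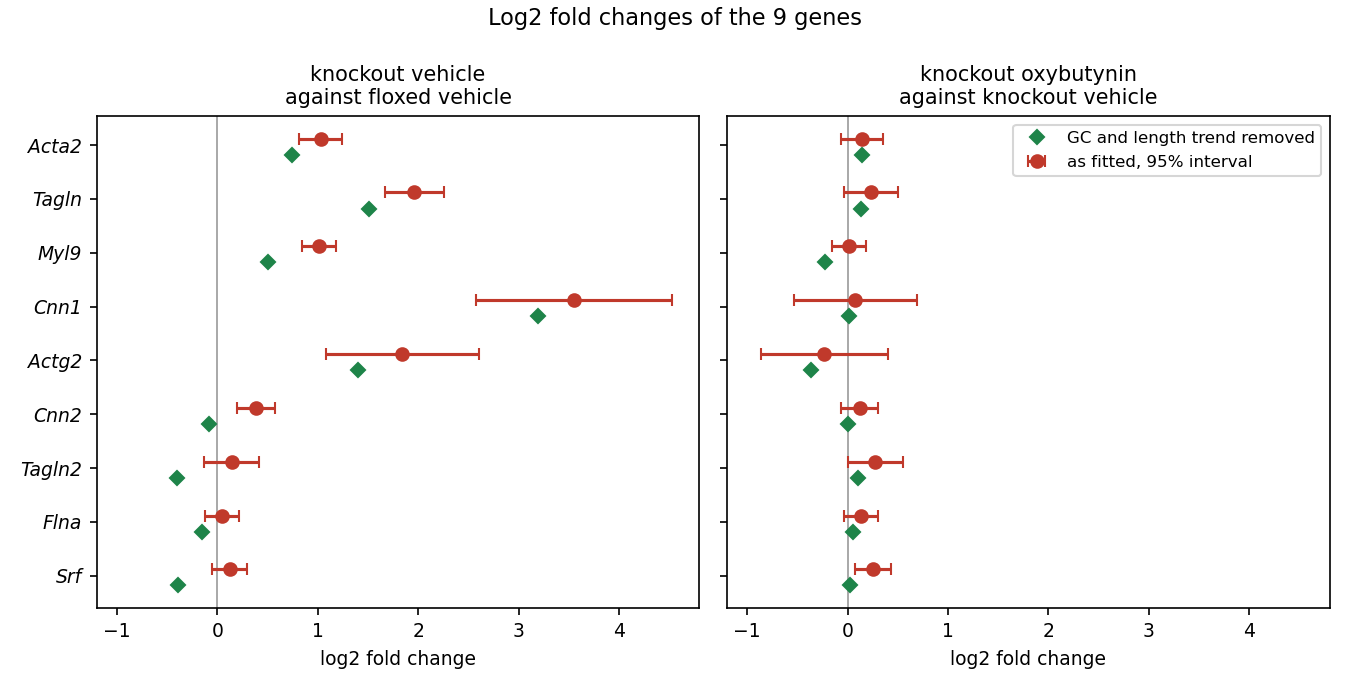
Log2 fold changes of the 9 genes for knockout vehicle against floxed vehicle and for oxybutynin against vehicle in knockout cells; circles are the fitted values with 95% intervals and diamonds the values after removal of the GC and length trend. The 5 contractile genes lie right of 0 in the first comparison in both forms, and most intervals of the second include 0.

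Known cytoskeletal and adhesion targets of MRTF and SRF outside the set went in both directions. Of 29, all tested, 11 were higher in knockout vehicle, 9 lower and 9 not called. Both shares were near those over all tested genes, 29.9% higher and 33.4% lower. The median log2 fold change of the 29 was 0.15. Ccn2, the matricellular connective tissue growth factor, rose from 14.4 ± 1.24 to 43.6 ± 2.23 CPM (1.60 ± 0.10, edgeR adjusted p = 3.59e-10), with 23.2% of its exonic bases shared with a gene on the other strand. Its relative Ccn1 rose by 0.58 ± 0.10 (edgeR adjusted p = 0.000121). Among those that fell was Nexn, the actin-binding protein nexilin, from 81.6 ± 3.70 to 21.5 ± 5.26 CPM (-1.93 ± 0.16, edgeR adjusted p = 1.68e-08). Filip1l fell from 61.8 ± 1.68 to 23.8 ± 0.928 CPM, and the matrix glycoprotein gene Thbs1 from 1148 ± 25.1 to 532 ± 76.4. Vcl, the adhesion protein vinculin, was at -0.24 ± 0.09 (edgeR adjusted p = 0.028), and 25.5% of its exonic bases overlap a gene on the other strand. With the GC and length trend removed 7 were higher and 13 lower, beside 30% and 35% of all genes in that fit. Ccn2 was then at 1.37, Ccn1 at 0.12 and not called, Nexn at -1.18, Filip1l at -0.87 and Thbs1 at -1.24.

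Immediate early genes stand for the ternary complex arm. Of 10 tested, 4 were higher and 1 lower (median 0.07), beside 29.9% and 33.4% of all tested genes. Without floxed vehicle replicate 1, 2 were higher. After removal of the GC and length trend 1 was higher and 6 lower, beside 30% and 35% of all genes in that fit. Nr4a1, an orphan nuclear receptor, went from 8.36 ± 0.623 to 32.8 ± 3.65 CPM (1.97 ± 0.11, edgeR adjusted p = 1.77e-10). Egr3 fell from 20.8 ± 1.02 to 12.6 ± 1.60 CPM. Fos at 6.67 ± 0.916 and 7.02 ± 1.44 CPM and Egr1 at 216 ± 9.32 and 194 ± 19.3 CPM were not called. Dusp1 (0.51 ± 0.14) and Fosb (0.44 ± 0.14) were called with small rises. With the GC and length trend removed Dusp1 (0.06) and Fosb (0.09) lost their calls, and Fos (-0.34) and Egr1 (-0.60) were called lower. Nr4a1 (1.48) and Egr3 (-1.02) kept their calls in that form.

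Among 23 tested cofactors of SRF and regulators of actin, 12 were higher and 6 lower, beside 29.9% and 33.4% of all tested genes. The median of the 23 was 0.24. Mrtfa was at 62.8 ± 2.46 and 75.9 ± 10.5 CPM (0.27 ± 0.10, edgeR adjusted p = 0.0207) and Mrtfb at 145 ± 1.35 and 144 ± 15.1 (-0.01 ± 0.09). Myocd, the myocardin of smooth and cardiac muscle, was at 1.43 ± 0.390 and 1.87 ± 0.429 CPM and not called. The kinase genes Rock1 and Rock2 fell, Rock1 from 110 ± 3.73 to 28.4 ± 7.41 CPM (-1.96 ± 0.14, edgeR adjusted p = 1.94e-09) and Rock2 from 397 ± 19.8 to 172 ± 29.6. The formin gene Diaph3 fell from 61.2 ± 2.17 to 28.2 ± 2.92 CPM and Scai, a repressor of MRTF, from 47.8 ± 2.81 to 17.3 ± 6.02. With the GC and length trend removed Rock1 was at -0.81, Diaph3 at -0.59, Rock2 at -0.27 and Scai at -0.14, the last not called, and Mrtfa at -0.12 was not called either.

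**Figure D5:**
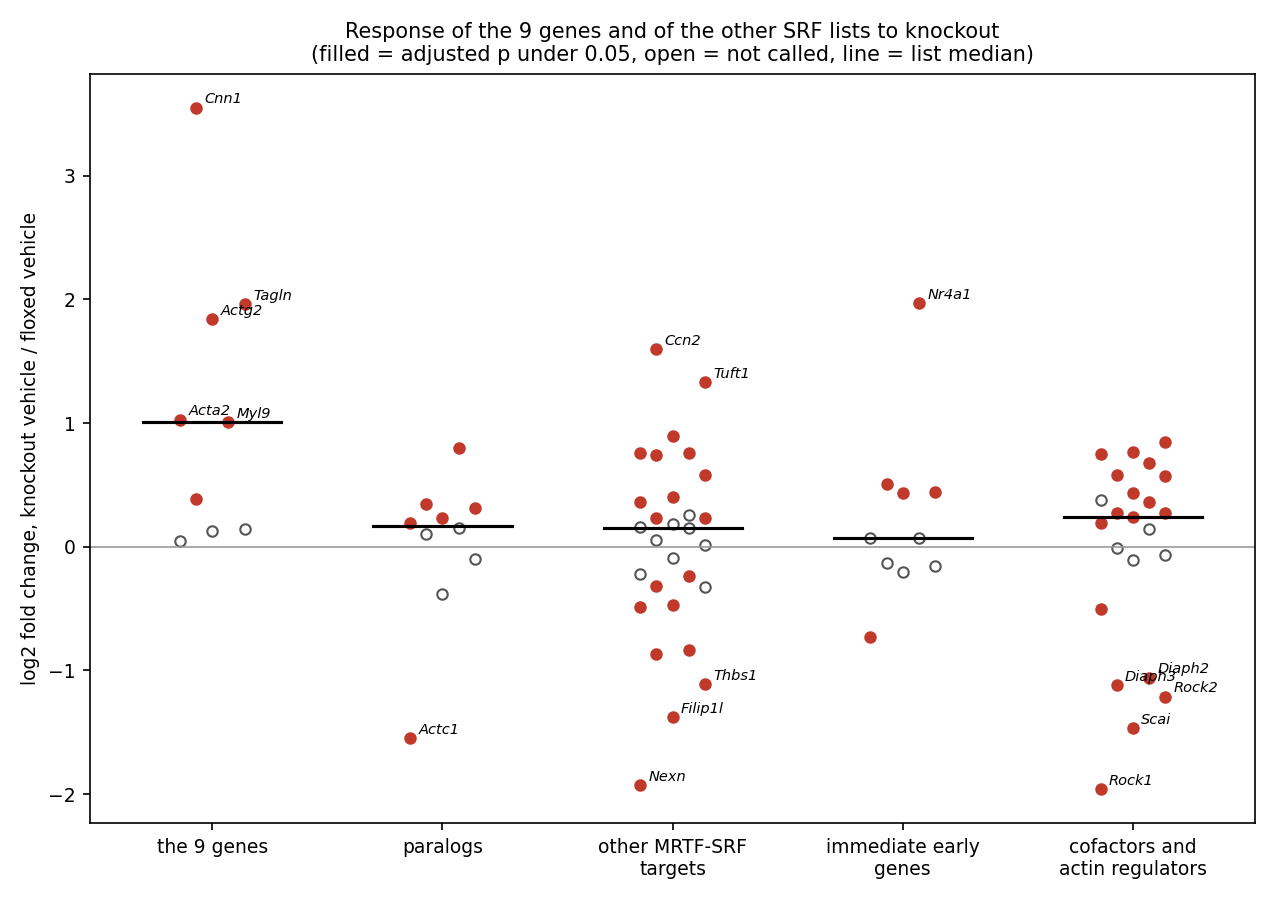
Log2 fold changes for knockout vehicle against floxed vehicle, 1 dot per tested gene, for the 9 genes and 4 other lists (filled, edgeR adjusted p under 0.05; open, not called; line, list median). Genes beyond 1 in either direction are named; the median of the 9 genes is 1.01, and those of the other lists lie between 0.07 and 0.24.

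Markers of smooth muscle and mural cells were measured as a list of 15, of which 12 were tested. Between floxed and knockout vehicle 4 were higher, 2 lower and 6 not called, beside 29.9% higher and 33.4% lower over all tested genes. The summed level of the markers was 399 to 419 CPM in the floxed, 406 to 457 in the knockout vehicle and 434 to 445 in the oxybutynin libraries. Notch3 (168 ± 2.40 and 192 ± 24.2 CPM in floxed and knockout vehicle) and Synpo2 (122 ± 5.51 and 130 ± 5.56), neither called, made up most of this sum. With the GC and length trend removed Synpo2 was called higher (0.38) and Notch3 lower (-0.13). The defining smooth muscle myosin Myh11 had 0, 4 and 1 counts in the floxed, 18, 12 and 7 in the knockout vehicle and 5, 7 and 8 in the oxybutynin libraries, which is under 1 CPM in every library. Kcnmb1, a potassium channel subunit of smooth muscle, and Kcnj8, of pericytes, were also under 1 CPM in every library. Pln, phospholamban, went from 0.285 ± 0.163 to 2.35 ± 0.705 CPM and Pdgfrb from 1.21 ± 0.0875 to 2.99 ± 0.193, while Abcc9 fell (-0.92 ± 0.19). Lmod1 (1.24 ± 0.29) and Itga8 (0.77 ± 0.27) were also called higher, and still were with the GC and length trend removed (0.845 and 1.25). Rgs5 was called lower at -0.44 ± 0.09 but higher, at 0.21, with the GC and length trend removed, when 6 of the 12 were higher and 3 lower. Over all genes in that fit 30% were higher and 35% lower. Pln had 4, 11 and 4 counts in the floxed libraries and, like Cnn1 and Actg2, passed the filter only through the knockout groups. Pln overlaps a gene on the other strand over 59.6% of its exonic bases. Of 10 fibroblast markers 5 were tested, with summed levels of 282 to 303, 302 to 311 and 269 to 312 CPM, and Dcn, Lum and Tcf21 were at or near 0. Most of that sum was Col3a1, which was called lower (256 ± 8.87 to 225 ± 8.97 CPM in knockout vehicle), whereas 3 of the 5 were called higher. These were Col1a1 (21.2 ± 1.76 to 54.4 ± 8.25 CPM), Col1a2 (12.6 ± 0.761 to 22.2 ± 3.10) and Thy1 (0.450 ± 0.135 to 1.74 ± 0.478), and the median log2 fold change of the 5 was 0.82. Thy1 had 11, 7 and 11 counts in the floxed libraries and also passed the filter only through the knockout groups. Of 7 endothelial markers 4 were tested and 1 called. Of 6 leukocyte markers 3 were tested and 2 called, beside 63.3% of all tested genes. Csf1r, among those 2, had 3, 6 and 5 counts in the floxed libraries and likewise passed the filter only through the knockout groups. The part of other cell types in the members' values was not tested.

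Oxybutynin was then compared with vehicle in knockout cells, the comparison that asks what the drug did. In edgeR's quasi-likelihood test 0 of the 9 genes passed the threshold, beside 0.0127% of all tested genes, or 0.00636% in each direction (2 of 15720 in all). DESeq2, which gave no adjusted p for Cnn1 and Actg2, and limma-voom also called 0, and 2 of the 9 had an unadjusted p under 0.05. Of all 15720 tested genes 4084 had an unadjusted p under 0.05. The largest difference was that of Tagln2, at 0.28 ± 0.13 (interval 0.00 to 0.55). Srf was the 1 member whose groups did not overlap, beside 10.5% of all genes separate and higher and 11.6% separate and lower. It stood at 154, 145 and 156 CPM against 124, 116 and 142 with vehicle, a log2 fold change of 0.25 ± 0.08 (interval 0.08 to 0.43, edgeR adjusted p = 0.0991), and was at 0.03 with the GC and length trend removed. In that form 0 of the 9 were called, beside 0.0154% of genes called higher and 0.0462% lower. For the contractile genes the 95% intervals of the difference were -0.06 to 0.35 for Acta2, -0.04 to 0.50 for Tagln, -0.15 to 0.18 for Myl9, -0.54 to 0.69 for Cnn1 and -0.86 to 0.40 for Actg2. In the other 4 lists of SRF genes edgeR called 0 genes. An unadjusted p under 0.05 was found for 8 of 23 cofactors and regulators, 14 of 29 targets, 4 of 10 immediate early genes and 4 of 10 relatives. These counts stand beside the 4084 of 15720 over all tested genes. DESeq2 called 190 genes higher and 966 lower over the whole table, among them 2 targets, 2 immediate early genes and 1 relative higher and 3 targets lower.

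Of the libraries left out in turn, knockout vehicle replicate 3, the closest to the treated group, moved the number of calls most. Without it edgeR called 1873 genes higher and 2315 lower of 16097 tested. Beside that share, 2 of the 9 genes, Srf (0.34) and Flna (0.20), were called higher and 0 lower. The contractile genes were called in no fit that left out a library, and Acta2 reached at most 0.24.

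Knockout oxybutynin was last set beside floxed vehicle. This comparison shares the floxed libraries with the first, so the members' values stand side by side and lend each other no weight. Of the 9 genes 8 were called higher, beside 35.1% of all genes called higher and 36.9% lower (71.9% in either direction), and all 9 had separate groups, beside 38.9% separate and higher and 40.1% separate and lower. The log2 fold changes were 1.17 ± 0.10 for Acta2, 2.19 ± 0.14 for Tagln, 1.02 ± 0.08 for Myl9, 3.63 ± 0.46 for Cnn1 and 1.61 ± 0.37 for Actg2. Here too Cnn1 and Actg2 were tested only because of their counts in the knockout groups. The broadly expressed members stood at 0.51 ± 0.09 for Cnn2, 0.42 ± 0.13 for Tagln2 and 0.38 ± 0.08 for Srf. Flna, at 0.18 ± 0.08, was not called (edgeR adjusted p = 0.0542), but was in 9 of 18 alternatives. Over the 18 its adjusted p in the test used ran from 0.000821 (edgeR) to 0.172 (edgeR), and it stood at -0.10 with the GC and length trend removed. With the GC and length trend removed the 5 contractile genes were higher, Myl9 at 0.28 only, Srf (-0.36) and Tagln2 (-0.29) lower, and Cnn2 and Flna not called, beside 31.8% of genes higher and 36.1% lower. Tagln2 lost its call without knockout oxybutynin replicate 1 (0.33, edgeR adjusted p = 0.054).

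Many other genes had a profile over the 9 libraries like that of the members. Across pairs of members the Pearson correlation of log2 CPM ran from 0.464 (Actg2 with Tagln2) to 0.995 (Acta2 with Tagln), where all points share the same 9 libraries. Of 8792 other genes averaging 10 CPM or more, 2362 had a correlation above 0.9 with Acta2, and the nearest were Aars, Trim47, Emilin1, Tnks1bp1 and Loxl1 (0.997 to 0.998). Loxl1, a lysyl oxidase relative of the matrix, had a log2 fold change of 1.28 ± 0.11 for knockout vehicle. Against the mean standardised profile of the 9 genes the nearest were Atp13a2, Plxnb2, Mpnd, Cenpb and Cacnb3 (0.997 to 0.999), with 2452 genes above 0.9. The transcripts of all 10 held 56.3 to 64.1% GC.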

How the data were processed

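Gene counts came from 9 RNA sequencing libraries. The deposited values are raw whole-number counts per gene. The submitters' processing notes name the aligner STAR 2.7.0e, the trimmer Trim Galore 0.6.0 with cutadapt and FastQC, the builds GRCm38 and mm10, and DESeq2 1.26.0. The sources used here do not say how reads were counted, whether by strand, or on which annotation. Each of the 55536 gene IDs was found in GENCODE M21 (GRCm38), and 55450 had a symbol.

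Counts were tested with edgeR 4.0.16 in R 4.3.3 (filterByExpr, TMM, quasi-likelihood test, 1 mean per group, all 9 libraries, 6 residual degrees of freedom). P-values were adjusted over the 15720 tested genes by Benjamini-Hochberg, and genes were called under 0.05. SEs and 95% intervals came from that fit. The test was checked on simulated counts. Alternatives were DESeq2 1.42.0, limma-voom (limma 3.58.1), other scalings and filters, a fit to the compared groups alone, each library left out in turn, protein-coding genes alone, an adjusted p under 0.01, and a spline trend on GC content and exon length removed per library.

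The members and lists were chosen with earlier results of these data known. The text names the 9 members, up to 4 genes per list with the lowest adjusted p, fixed regulators and relatives, and the 5 genes nearest each profile. Actb and Actg1 stand in the target and relative lists, Mylk and Myocd also among smooth muscle markers. Not every gene that this rule names is reported here.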

Additional observations from a re-analysis of the deposited data

How the results depend on the processing

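Between floxed and knockout vehicle, and between floxed vehicle and knockout oxybutynin, Acta2, Tagln, Myl9, Cnn1 and Actg2 kept their direction and their call under every alternative in which they were tested. For Cnn1 and Actg2 this adds no weight, since they passed the main filter only through the knockout groups. Cnn1 was not tested at a mean of at least 1 CPM. Removing the GC and length trend gave 3 members lower in knockout vehicle in place of 0. In knockout oxybutynin against floxed vehicle it gave 5 higher in place of 8 and 2 lower in place of 0. It turned the log2 fold change to -0.087 for Cnn2, -0.400 for Tagln2, -0.389 for Srf and -0.148 for Flna in the first comparison, and to -0.085, -0.291, -0.363 and -0.095 for Cnn2, Tagln2, Srf and Flna in the last, where it also took Myl9 from 1.02 to 0.28. The cause was not tested. Leaving out 1 library gave 6 to 8 members higher for knockout vehicle, 0 to 2 for oxybutynin against vehicle and 7 to 9 for knockout oxybutynin against floxed vehicle. Over all genes, oxybutynin against vehicle gave 1 higher and 1 lower, and 10 and 148 with library totals, 190 and 966 with DESeq2, 277 and 822 with no filter, 12 and 51 without knockout vehicle replicate 2, 1873 and 2315 without knockout vehicle replicate 3, 2 and 5 with RLE scaling, 2 and 6 with the GC and length trend removed, 2 and 1 with limma-voom, 2 and 0 with the compared groups alone, 0 and 1 with protein-coding genes, and 0 and 0 at an adjusted p under 0.01, without knockout vehicle replicate 1 or any 1 oxybutynin library. No paired analysis was possible because the library numbers in the labels run from 1 to 9 and no number is shared between groups. Depth limits Cnn1, Actg2 and Myh11, whose floxed libraries held at most 10 counts each.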

Other observations

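Abra, which encodes STARS, an actin-binding activator of MRTF and SRF signalling in striated muscle, was chosen after its values were seen. Floxed libraries gave 2.40, 2.19 and 2.71 CPM, knockout libraries 4.66, 3.77 and 4.74 with vehicle and 2.00, 3.03 and 2.07 with oxybutynin. Every knockout vehicle library stood above all others, and the treated libraries overlapped the floxed ones. The log2 fold change was 0.85 ± 0.20 for knockout vehicle against floxed vehicle (edgeR adjusted p = 0.00138) and -0.88 ± 0.20 for oxybutynin against vehicle, which missed the threshold (edgeR adjusted p = 0.0644). With the GC and length trend removed these were 1.33 and -0.67, the second again not called. Knockout oxybutynin against floxed vehicle stood at -0.04 ± 0.21 and was not called. With the trend removed that comparison gave 0.66 and was called higher (edgeR adjusted p = 0.014).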
